A study of Mus musculus with 29 samples.

Results

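Expression of 10 genes of costimulation and immune checkpoints was examined in mouse lung tumours: Tnfsf9 and its receptor Tnfrsf9, the receptor Pdcd1 and its ligands Cd274 and Pdcd1lg2, Ctla4 with the B7 ligands Cd80 and Cd86, and the surface proteins Cd200 and Cd276. The members were the probe sets annotated to these genes, 16 of the 45101 on the array, and 12 of the 16 passed a filter on low signals, with at least 1 for each of the 10 genes. The list was built around Tnfsf9, which was chosen by its signal in tumours against normal lung, so values against normal lung are a description with no test.

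A first response of T cells needs the antigen signal and a second signal, from ligands on the cell that presents the antigen. Some ligands of the B7 and tumour necrosis factor families drive that second signal, and others, with their receptors, hold T cells back. Tumour cells, macrophages and dendritic cells can all carry such ligands, while most of the receptors sit on activated T and natural killer cells. In whole tumour tissue, fewer cells of a type and less RNA per cell cannot be told apart.

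The arrays held 6 TI-KM recurrences, 14 TI-KM primary tumours, 8 TI-K primary tumours and 1 normal lung, all of a mixed 129/Bl6 background. Both TI-KM groups carried CCSP-rtTA, TRE-KrasV12 and TRE-Mad2, TI-K mice carried CCSP-rtTA and TRE-KrasV12, and the normal lung carried CCSP-rtTA alone, so all mice shared the transactivator, which the CCSP promoter drives in airway epithelium. The tumours were labelled lung adenocarcinoma or adenoma; the labels give neither age nor doxycycline schedule, and TI-KM primaries 1 and 2, both with title number 76, may stem from 1 mouse. Nothing says that samples came from separate animals, so p-values measure the spread between these samples.

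Values are MAS5 signals, a brightness per probe set on a linear scale, and differences between groups are on the log2(signal + 20) scale, which understates changes of weak genes. Mad2l1, the mouse gene of the Mad2 transgene, gave 437 to 1845 in recurrences, 492 to 1271 in TI-KM primaries, 573 to 1478 in TI-K primaries and 340 in normal lung, so its signal did not set TI-KM tumours apart from TI-K tumours. No label says whether its probe set reads the transgene. Epithelial markers were present in the tumours, but not all lay above normal lung. Krt18, a keratin of simple epithelia, gave 386 in normal lung. Its signal was 2305 to 19587 in recurrences, 7688 to 14216 in TI-KM primaries and 5313 to 12247 in TI-K primaries. Sftpc had medians of 13617 in recurrences, 16570 in TI-KM primaries and 18660 in TI-K primaries, against 28262 in normal lung. Nkx2-1 had medians of 63.8, 75.5 and 62.2 in the same order, against 64.9 in normal lung.

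The arrays also fell into sets that no label explains. The 18S ribosomal RNA control exceeded 12000 in 4 recurrences and 6 TI-KM primaries, here called high-18S arrays, and 5 TI-K primaries had title numbers above 2000, here called high-number arrays. The remaining tumour arrays were 2 recurrences, 8 TI-KM primaries and 3 TI-K primaries. No TI-K tumour was high-18S and no TI-KM tumour was high-number, so set and group overlap in part, and each group difference was also fitted with a block for set, and again within the remaining arrays. The 3′ to 5′ ratio of the control transcripts was taken on the log2 scale. This log2 ratio averaged 1.32 ± 0.45 in recurrences (SD, n = 6) and 2.16 ± 0.67 in TI-KM primaries (SD, n = 14). In TI-K primaries it averaged 2.16 ± 0.41 (SD, n = 8). Its part in the results was tested only as a covariate.

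TI-KM recurrence 1 stood apart from the other recurrences. Its signal lay above all of them for 11 of 13 T and natural killer cell markers, 4 of 5 B cell markers, 10 of 11 dendritic cell markers and 8 of 13 macrophage markers. The same held for 1 of 8 epithelial markers and 0 of 8 endothelial markers. The share of all genes that were highest in recurrence 1 was not computed, so these counts have no background. Cd14, Marco and Siglecf, of the macrophage markers, were lowest in recurrence 1. Cd14 gave 2417 there and 4113 to 18276 in the others, Marco 12.6 and 14.5 to 2152, and Siglecf 108 and 115 to 1683. Ms4a1, the B cell protein CD20, gave 10963 in recurrence 1 and 104 to 985 in recurrences 2 to 6. Ptprc, the pan-leukocyte phosphatase CD45, gave 17743 in recurrence 1 and 700.4 to 5614 in the others, and Epcam, an epithelial adhesion protein, gave 926 in recurrence 1 and 2249 to 4021 in the others. None of these markers was at 0 in any array.

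**Figure D1:**
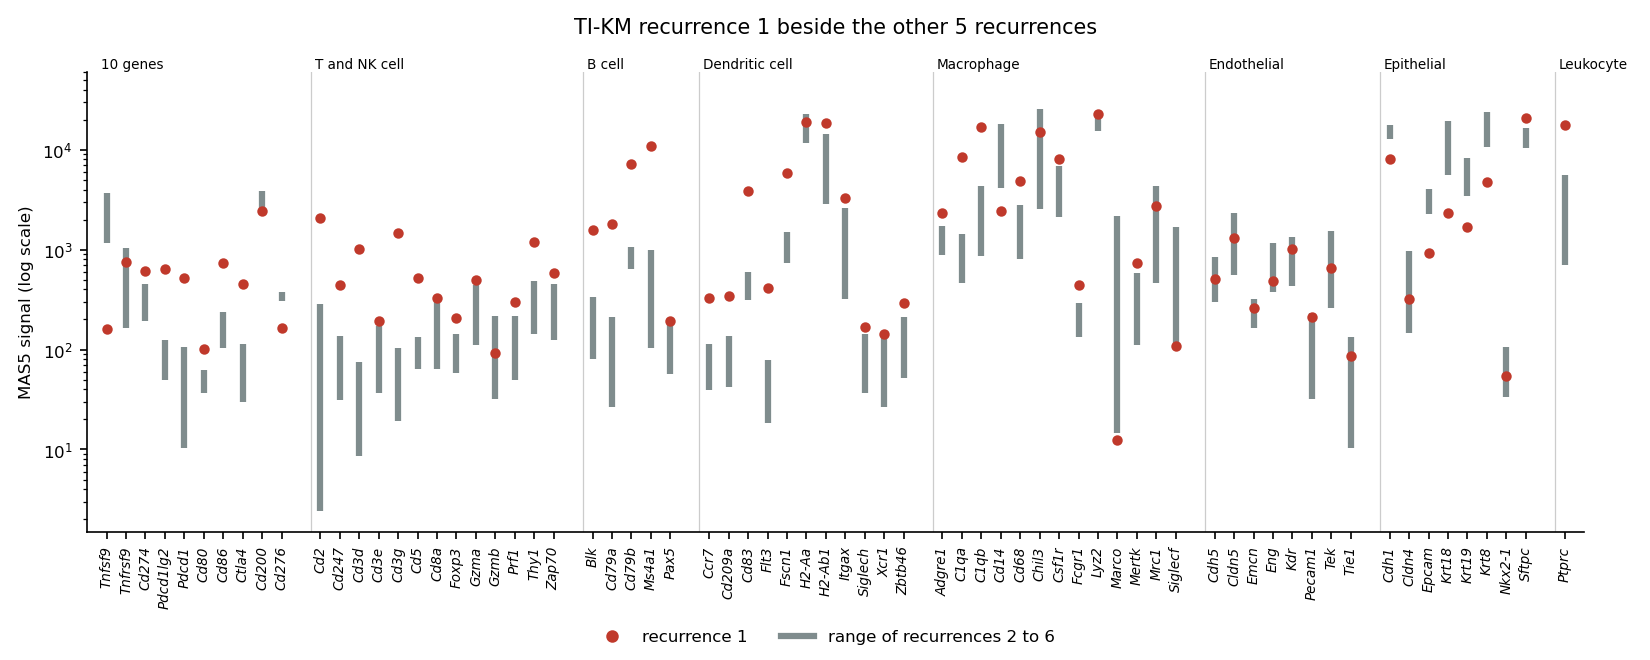
MAS5 signal (log axis) of the 10 genes and of cell type markers in TI-KM recurrence 1 (red points) beside the range of recurrences 2 to 6 (grey bars). Recurrence 1 had the highest Cd86, Ctla4, Pdcd1, Pdcd1lg2, Cd80 and Cd274 and the lowest Tnfsf9 and Cd276 of the 6 recurrences. It lay above the other 5 for 11 of 13 T and natural killer cell markers.

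Across the 14602 genes tested, limma called 38 genes, or 0.26%, between recurrences and TI-KM primaries, and none of the 10 genes was among them. The unadjusted limma p was under 0.05 for 1 of the 10, beside 1817 of the 14602 genes. Between TI-KM and TI-K primaries 8.01% of genes were called, and 1 of the 10, Cd276, was lower (2.51% of all genes were called lower). Between recurrences and TI-K primaries 18.9% of genes were called, and 2 of the 10, Cd274 and Cd276, were lower (6.73% of all genes were called lower). Those shares are of the size of the background. The 3 comparisons share samples. With the sets as a block, limma called 0 of the 10 genes in each comparison. Of all genes 0.705%, 0% and 0.0959% were called, in the same order. With this block the unadjusted limma p was under 0.05 for 2 of the 10 in each comparison. Beside them stood 2197, 707 and 1625 of the 14602 genes, in the same order.

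**Figure D2:**
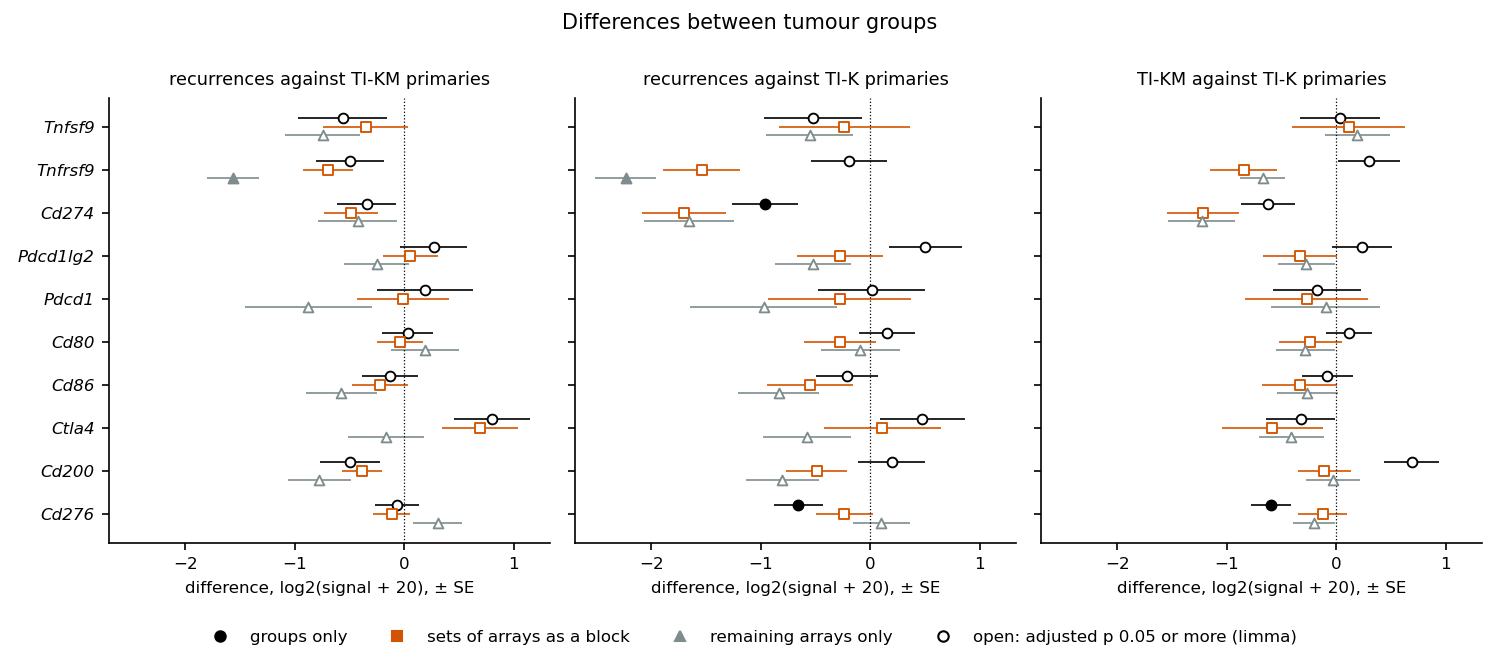
Differences of the 10 genes between tumour groups on the log2(signal + 20) scale with their standard errors, from limma with the groups alone (circles), with the sets of arrays as a block (squares) and within the remaining arrays (triangles). Filled symbols have an adjusted p below 0.05: Cd276 and Cd274 with groups alone, and Tnfrsf9 within the remaining arrays.

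Tnfsf9 encodes the 4-1BB ligand, a tumour necrosis factor family protein that stimulates T and natural killer cells. Its signal was 160, 1341, 3681, 1788, 1166 and 1868 in recurrences 1 to 6, 717 to 4097 with a median of 2083 in TI-KM primaries, and 1167 to 2698 with a median of 1695 in TI-K primaries, against 9.85 in normal lung. All 28 tumours lay above the normal lung, as 12.6% of all genes did, while the 3 tumour groups overlapped almost wholly and only recurrence 1 lay below every other tumour. Group means on the log2 scale exceeded the normal lung by 5.38 in recurrences, 5.94 in TI-KM primaries and 5.90 in TI-K primaries.

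The size of that step depends on the offset, because the normal value is below it. With an offset of 5 the differences from normal lung were 6.35, 6.93 and 6.90 in recurrences, TI-KM primaries and TI-K primaries, and with an offset of 100 they were 3.64, 4.13 and 4.09. Tnfsf9 did not pass the limma test in any comparison of tumour groups: the difference was −0.56 for recurrences against TI-KM primaries (SE 0.41, adjusted p = 0.586), −0.52 for recurrences against TI-K primaries (SE 0.45, adjusted p = 0.415) and 0.04 for TI-KM against TI-K primaries (SE 0.37, adjusted p = 0.958). Without recurrence 1 the difference of recurrences from TI-K primaries turned to 0.03 and that from TI-KM primaries was −0.0040.

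Tnfsf9 differed between high-18S and remaining arrays. High-18S arrays had 160 to 3681 in recurrences and 717 to 2430 in TI-KM primaries, and the remaining arrays had 1166 and 1868 in recurrences and 1275 to 4097 in TI-KM primaries. With group in the model, high-18S arrays were lower by limma, by −0.87 (SE 0.36, adjusted p = 0.0424), where 49.8% of all genes were called, and after each array was scaled to a common median the difference was −1.57. With quantile normalization it was −0.81 and not called (limma adjusted p = 0.0831).

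Tnfrsf9 encodes 4-1BB, the receptor of that ligand, which appears on T cells after activation. Its signal was 752, 1033, 982, 425, 163 and 219.9 in recurrences 1 to 6, 473 to 1072 with a median of 663 in TI-KM primaries and 255 to 1230 with a median of 474 in TI-K primaries, against 92.4 in normal lung. For this probe set, the strongest of the gene, every tumour was above the normal lung. The low recurrences, 5 and 6, are the 2 of the remaining set, and both lay below all 8 TI-KM primaries of that set (473 to 755) and all 3 of its TI-K primaries (621 to 1230).

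Over all arrays the difference of Tnfrsf9 between recurrences and TI-KM primaries was −0.49 (SE 0.31, limma adjusted p = 0.538). Within the remaining arrays Tnfrsf9 was lower in recurrences by −1.56 against TI-KM primaries (SE 0.24, limma adjusted p = 0.0266; 0.0822% of all genes called) and by −2.23 against TI-K primaries (SE 0.28, limma adjusted p = 0.00435; 0.13% called). It was the only 1 of the 10 genes called there, and 2 recurrences carry it. Among high-18S arrays the difference between recurrences and TI-KM primaries was −0.11 (SE 0.29, limma adjusted p = 0.928). The test of the recurrence difference in high-18S minus remaining arrays gave 1.45 (SE 0.37, limma adjusted p = 0.522) and was not called, as no gene was, though 807 genes had an unadjusted p under 0.05.

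A second Tnfrsf9 probe set had weaker signals, 6.70 to 37.8 in recurrences, 9.23 to 141 in TI-KM primaries and 2.84 to 184 in TI-K primaries, against 3.41 in normal lung. There the recurrences were low in both sets: high-18S recurrences had 7.08 to 37.8 and high-18S TI-KM primaries 11.4 to 141. Apart from recurrence 2, at 37.8, recurrence signals of this probe set were 6.70 to 13.4, below the offset of 20. Its difference between recurrences and TI-KM primaries was −1.12 (SE 0.39, limma adjusted p = 0.180 over all probe sets) and −1.10 with the sets as a block (SE 0.32, p = 0.0646 after adjustment). The probe sets therefore differed in the high-18S recurrences, where the stronger one showed 3 high signals. The third Tnfrsf9 probe set did not pass the filter and was not tested. Its signal was 32.5 to 137 in recurrences and 25.9 to 105 in TI-KM primaries, without a lower level in recurrences. TI-K primaries had 11.6 to 57.4 with a median of 24.7, against 33.6 in normal lung. Among remaining arrays the recurrences had 35.6 and 39.3 in this probe set, within the ranges of TI-KM primaries (25.9 to 43.0) and TI-K primaries (24.7 to 57.4).

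**Figure D3:**
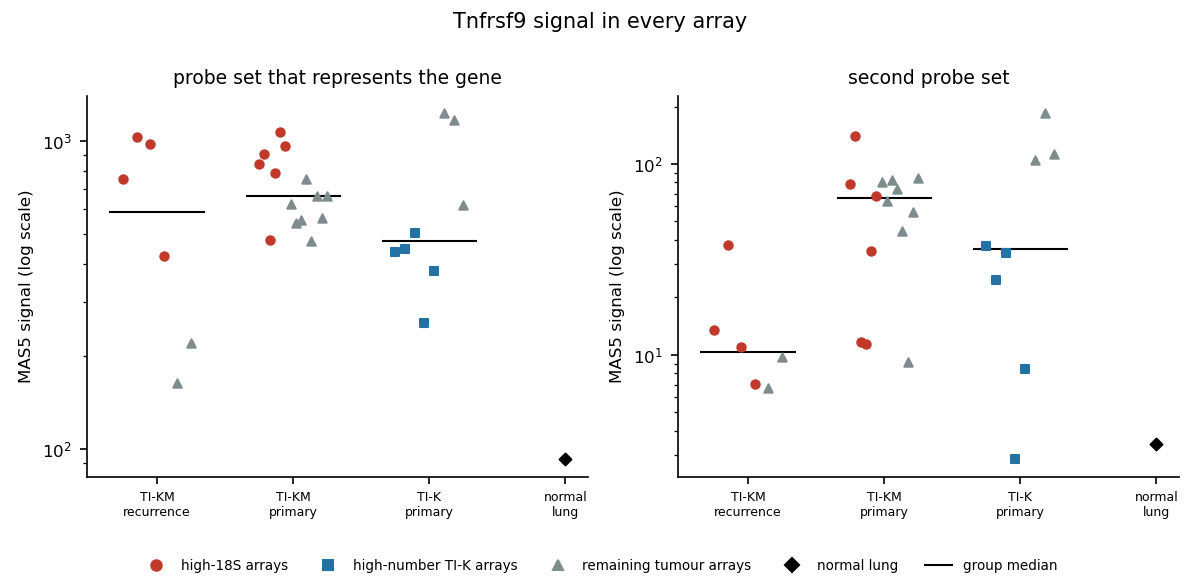
MAS5 signal (log axis) of the 2 Tnfrsf9 probe sets that passed the filter, in every array by group, with symbols for the sets of arrays and lines at group medians. In the first probe set recurrences 5 and 6 (163 and 219.9) lie below every other TI-KM tumour, and in the second all 6 recurrences lie at or under 37.8.

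Sets of arrays also went with Tnfrsf9. It was higher in high-18S arrays by 0.84 (SE 0.21, limma adjusted p = 0.00151), though by 0.16 once arrays were scaled to a common median (adjusted p = 0.533), and it was lower in high-number than in remaining TI-K primaries by −1.25 (SE 0.33, limma adjusted p = 0.0206), where 7.5% of all genes were called. High-number TI-K primaries had 255 to 502 and the other 3 had 621 to 1230, with no overlap.

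Pdcd1 encodes PD-1, an inhibitory receptor of activated T cells. Its signal was 516, 31.4, 36.0, 106, 14.1 and 10.3 in recurrences 1 to 6, with medians of 33.7 in recurrences, 48.3 in TI-KM primaries (7.66 to 114) and 63.1 in TI-K primaries (16.4 to 97.4), against 9.28 in normal lung. Signals were weak and overlapping apart from recurrence 1, and 27 of 28 tumours lay above the normal lung. The difference between recurrences and TI-KM primaries was 0.19 (SE 0.44, limma adjusted p = 0.880) and turned to −0.37 without recurrence 1.

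Cd274 encodes PD-L1, the ligand of PD-1 found on tumour and myeloid cells. Its signal was 614, 455, 202, 402, 192 and 364 in recurrences 1 to 6, 226 to 815 with a median of 447 in TI-KM primaries, and 337 to 1298 with a median of 721 in TI-K primaries, against 936 in normal lung. Only 2 of 28 tumours, both TI-K primaries, lay above the normal lung, the fewest for any of the 10 genes. The groups overlapped, and TI-K primaries held the highest signals.

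Cd274 was lower in recurrences than in TI-K primaries by −0.96 (SE 0.30, limma adjusted p = 0.0261), where the median over all genes was 0.11. The call was lost without recurrence 3 (adjusted p = 0.0762), without recurrence 5 (adjusted p = 0.0578) and with the 3′ to 5′ ratio as a covariate (difference −1.03, adjusted p = 0.0523). With the set block the difference was larger and still not called, −1.70 (SE 0.38, limma adjusted p = 0.0639). In the remaining arrays recurrences had 192 and 364 and TI-K primaries 477, 1085 and 1298, without overlap, and the difference was −1.65 (SE 0.41, limma adjusted p = 0.121).

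For TI-KM against TI-K primaries Cd274 differed by −0.62 (SE 0.25, limma adjusted p = 0.0998), and by −1.22 with the set block (SE 0.33, adjusted p = 0.517). Between high-18S and remaining arrays it was higher by 0.59 (SE 0.23, limma adjusted p = 0.0322), a direction that turned to −0.08 after scaling to a common median, and with quantile normalization the call was lost (difference 0.41, adjusted p = 0.157).

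Pdcd1lg2 encodes PD-L2, the second PD-1 ligand, known from dendritic cells and macrophages. Its signal was 638, 124, 120.3, 102, 82.0 and 49.0 in recurrences 1 to 6, 54.2 to 197 with a median of 114 in TI-KM primaries, and 56.2 to 155 with a median of 79.9 in TI-K primaries, against 69.0 in normal lung. Recurrence 1 was far above the others, and the groups otherwise overlapped. Its difference was 0.27 between recurrences and TI-KM primaries (SE 0.30, limma adjusted p = 0.732) and 0.50 between recurrences and TI-K primaries (SE 0.34, limma adjusted p = 0.285). Without recurrence 1 these were −0.16 and 0.08, and with the set block the second was −0.28. High-18S arrays were higher than remaining arrays by 0.89 (SE 0.23, limma adjusted p = 0.00243), by 0.30 after scaling to a common median (adjusted p = 0.243) and by 0.32 with quantile normalization (adjusted p = 0.292).

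The genes of both PD-1 ligands lie side by side on chromosome 19, with 43481 bases between the starts used here. Over all arrays TI-K primaries had the highest tumour median of Cd274 and the lowest of Pdcd1lg2, so the promoter windows are shown. That contrast did not hold within the remaining arrays. Medians of Cd274 there were 1085 in TI-K primaries, 395 in TI-KM primaries and 278 in recurrences. For Pdcd1lg2 they were 91.4, 78.6 and 65.5 in the same order. Promoter windows, 250 bases before to 50 after a start, came from RefSeq on GRCm38.p6 and were found for 8 of the 10 genes. Capitals mark a match to a loose NF-kB motif, GGG and CC with 5 bases between.
Cd274, chr19:29367188-29367487, plus strand: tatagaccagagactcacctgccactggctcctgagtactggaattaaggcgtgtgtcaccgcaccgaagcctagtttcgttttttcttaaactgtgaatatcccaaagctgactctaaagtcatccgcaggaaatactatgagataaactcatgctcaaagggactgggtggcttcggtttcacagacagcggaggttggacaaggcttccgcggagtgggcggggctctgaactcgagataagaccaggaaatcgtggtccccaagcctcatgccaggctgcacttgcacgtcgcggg
Pdcd1lg2, chr19:29410669-29410968, plus strand: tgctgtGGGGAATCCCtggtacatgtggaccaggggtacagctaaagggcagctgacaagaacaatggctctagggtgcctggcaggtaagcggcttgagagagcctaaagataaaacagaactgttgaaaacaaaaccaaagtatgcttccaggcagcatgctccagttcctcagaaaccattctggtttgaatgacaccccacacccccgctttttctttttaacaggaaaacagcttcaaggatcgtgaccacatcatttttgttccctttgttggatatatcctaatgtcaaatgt

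The Cd274 window starts inside the annotated gene, which spans positions 29362107 to 29388095, at a start RefSeq lists there. Its GC content was 52.7%, the median over 32851 promoters, with 15 CpG dinucleotides; the Pdcd1lg2 window had 46.0% and 3. Searched on both strands, the loose NF-kB motif occurred in 50.8% of all promoters and 1 time in the Pdcd1lg2 window. The core of the interferon response element ISRE occurred in 3.44% and TGANTCA (AP-1) in 7.81% of all promoters, and neither occurred in either window. A match is a description of letters and names no binding site.

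Ctla4 encodes an inhibitory receptor of T cells that binds the same ligands as the activating receptor CD28. Its signal was 454, 50.1, 95.9, 114, 37.6 and 29.9 in recurrences 1 to 6, 11.7 to 121 with a median of 36.1 in TI-KM primaries, and 33.1 to 97.6 with a median of 48.7 in TI-K primaries, against 83.3 in normal lung. Recurrence 1 had the highest signal of all arrays, and the other recurrences lay within the range of TI-KM primaries. The difference between recurrences and TI-KM primaries was 0.80 (SE 0.35, limma adjusted p = 0.342), and 0.37 without recurrence 1. It was 1.27 among high-18S arrays (SE 0.55, limma adjusted p = 0.484) and −0.17 among the remaining arrays (SE 0.35, limma adjusted p = 0.950).

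Cd86 encodes B7-2, a ligand of CD28 and CTLA-4 on dendritic cells, macrophages and B cells. Its signal was 739 in recurrence 1 and 104 to 236 in recurrences 2 to 6, 150 to 478 with a median of 224 in TI-KM primaries, and 200 to 307 with a median of 255 in TI-K primaries, against 251 in normal lung. Recurrences 2 to 5 lay within the range of the primaries and recurrence 6, at 104, below it. None of the comparisons of groups or sets passed the test, and the difference between recurrences and TI-KM primaries was −0.13 (SE 0.26, limma adjusted p = 0.856). A second Cd86 probe set also had its highest signal in recurrence 1, at 328, against 14.4 to 145 in the others.

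Cd80 encodes B7-1, the other ligand of CD28 and CTLA-4. Its strongest probe set gave 36.4 to 102 with a median of 59.4 in recurrences, 26.4 to 108 with a median of 54.5 in TI-KM primaries and 29.9 to 81.0 with a median of 51.1 in TI-K primaries, against 87.9 in normal lung. The 3 other Cd80 probe sets did not pass the filter. The groups overlapped fully, recurrence 1 had the highest signal of the recurrences, and differences between tumour groups were between 0.03 and 0.15 in size, none called by limma.

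The part of recurrence 1's high leukocyte marker signals in these values was not tested. The summed signal of the 13 T and natural killer cell markers was 1360 to 8901 with a median of 2098 in recurrences, 1232 to 3523 in TI-KM primaries and 897 to 2285 in TI-K primaries, against 3209 in normal lung. The sum of the 11 dendritic cell markers was 17602 to 52304 with a median of 37131 in recurrences. It was 30472 to 47209 in TI-KM primaries and 16865 to 47123 in TI-K primaries, against 11685 in normal lung. In tumours the largest parts of this sum were H2-Aa and H2-Ab1, with medians of 19174 and 12903 in recurrences. Zbtb46, Flt3 and Fscn1 had all tumour group medians below normal lung. Itgax, Cd83 and Ccr7 had all of them above, as did H2-Aa and H2-Ab1. Cd209a, Siglech and Xcr1 went both ways. The sum of the 5 B cell markers was 1044 to 21830 with a median of 1542 in recurrences, 939 to 2329 in TI-KM primaries and 879 to 1654 in TI-K primaries, against 1502 in normal lung. The high end in recurrences was recurrence 1 for all 3 sums.

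Cd200 encodes a membrane protein that restrains myeloid cells through its receptors. Its signal was 2421, 2360, 3871, 3107, 2941 and 2815 in recurrences 1 to 6, 2356 to 6912 with a median of 4428 in TI-KM primaries, and 1474 to 5539 with a median of 1751 in TI-K primaries, against 1094 in normal lung. All 28 tumours lay above the normal lung, and the TI-K primaries fell into separate ranges by title number. The 5 high-number tumours had 1605, 1818, 1683, 1683 and 1474, and the other 3 had 4812, 4781 and 5539.

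That split was the largest set difference of the 10 genes, −1.60 for high-number against remaining TI-K primaries (SE 0.26, limma adjusted p = 0.000688). High-18S arrays were lower than remaining arrays by −0.47 (SE 0.17, limma adjusted p = 0.0205) and by −1.17 after scaling to a common median, while with quantile normalization the difference of −0.32 was not called (limma adjusted p = 0.108). TI-KM primaries were higher than TI-K primaries by 0.69 over all arrays (SE 0.25, limma adjusted p = 0.0747), whereas the difference was −0.11 with the set block (SE 0.24, adjusted p = 0.995) and −0.03 among remaining arrays (SE 0.25, adjusted p = 0.990). Between recurrences and TI-KM primaries Cd200 differed by −0.49 (SE 0.28, limma adjusted p = 0.470).

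Cd276 encodes B7-H3, a B7 family protein found on many tumour cells. Its signal was 164, 374, 305, 307, 340.0 and 348 in recurrences 1 to 6, 206 to 441 with a median of 309 in TI-KM primaries, and 229 to 828 with a median of 518 in TI-K primaries, against 88.6 in normal lung. All 28 tumours lay above the normal lung, and the high TI-K signals were those of the high-number tumours. The 5 high-number tumours had 462 to 828, above every other tumour, and the other 3 TI-K primaries had 229, 394 and 359, within the TI-KM range.

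Over all arrays Cd276 was lower in TI-KM than in TI-K primaries by −0.59 (SE 0.18, limma adjusted p = 0.0446) and lower in recurrences than in TI-K primaries by −0.66 (SE 0.22, limma adjusted p = 0.0398). In the fit that blocks on set these became −0.12 (SE 0.22, adjusted p = 0.995) and −0.24 (SE 0.26, adjusted p = 0.781). Among remaining arrays the difference was −0.21 (SE 0.19, limma adjusted p = 0.899) for TI-KM primaries and 0.10 (SE 0.26, limma adjusted p = 0.917) for recurrences, both against TI-K primaries. Leaving out any 1 of the 5 high-number tumours ended both calls, with limma adjusted p up to 0.115 for the first and up to 0.0842 for the second. The first call also ended without TI-KM primary 2, 3, 6, 8, 9, 10 or 12 or recurrence 4, and the second without recurrence 1, 3 or 4, with an adjusted p of 0.120 without recurrence 1.

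High-number TI-K primaries were higher in Cd276 than the remaining TI-K primaries by 0.90 (SE 0.25, limma adjusted p = 0.0240), and by 0.68 after scaling to a common median (adjusted p = 0.102). In all, limma called 5 of the 10 genes between high-18S and remaining arrays and 3 of the 10 between high-number and remaining TI-K primaries, where 7.5% of all genes were called. Between high-18S and remaining arrays, where 49.8% of all genes were called, scaling to a common median moved the median of all genes to −0.48, against 0.18 as deposited. The split of all genes called then became 1564 higher and 7657 lower, against 4956 higher and 2311 lower as deposited.

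**Figure D4:**
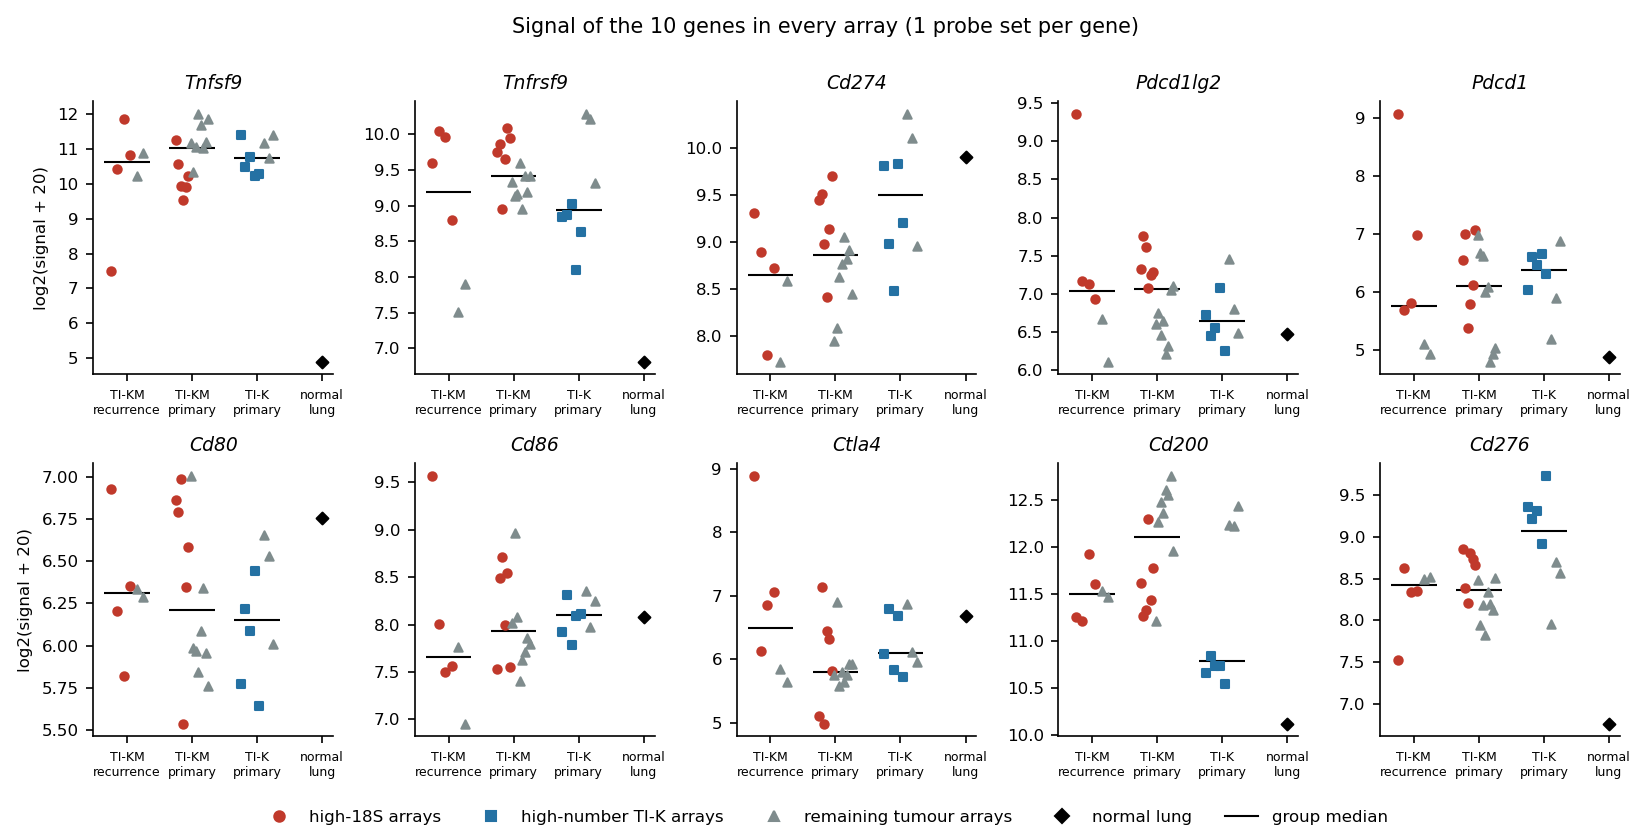
Signal of the 10 genes, 1 probe set per gene, as log2(signal + 20), in every array by group. Symbols mark the sets of arrays and lines the group medians. All 28 tumours lie above the normal lung in Tnfsf9, Tnfrsf9, Cd200 and Cd276, as in 12.6% of all genes. The high-number TI-K tumours stand apart in Cd200 and Cd276, and recurrence 1 is the highest point in Pdcd1lg2, Pdcd1, Cd86 and Ctla4.

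Against the normal lung, 5 of the 10 genes were at least 2-fold higher in the mean of each tumour group: Tnfsf9, Tnfrsf9, Pdcd1, Cd200 and Cd276. For Tnfrsf9 this held only in its strongest probe set. The second had log2 means of 5.04 in recurrences, 6.16 in TI-KM primaries and 6.02 in TI-K primaries, against 4.55 in normal lung. The third had 6.29, 6.12 and 5.49 in the same order, against 5.74. Of all genes, 16% were at least 2-fold higher in recurrences, 14.5% in TI-KM primaries and 12.7% in TI-K primaries; the list was chosen with this contrast in view, so nothing is read from the counts. Cd274 was at least 2-fold lower in recurrences, by −1.40, and in TI-KM primaries, by −1.05, but not in TI-K primaries, at −0.44. The normal lung, at 12569 for the 18S control, was itself over 12000, and its endothelial marker sum of 16841 exceeded the 7233 of the highest tumour.

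Other genes of these pathways were taken from fixed lists. Between recurrences and TI-KM primaries limma called none of them over all arrays. Within the remaining arrays it called Socs3, an inhibitor of cytokine signalling named after its values were seen, lower in the 2 recurrences than in TI-KM primaries by −1.52 (SE 0.20, limma adjusted p = 0.0174). Between recurrences and TI-K primaries, where 12.2% of all genes were called higher and 6.73% lower, it called 4 of 19 tumour necrosis factor receptors and 2 of 7 ligands higher, 1 of 12 other inhibitory receptors and ligands higher, 0 of 10 further B7 and CD28 family genes, and 1 of 16 TRAF and NF-kB genes lower. The median difference was 0.33 for the receptors, 0.65 for the ligands and −0.03 for the TRAF and NF-kB genes, beside 0.11 for all genes. Of 14 interferon gamma and JAK-STAT genes, 3 were higher and 1 lower. Between TI-KM and TI-K primaries, where 5.5% of all genes were called higher, 1 of 7 ligands was. So were 2 of 14 interferon gamma and JAK-STAT genes and 1 of 2 CD200 receptors. None was called there of the 19 receptors and the 10 B7 and CD28 family genes. The same held for the 12 other inhibitory receptors and ligands and the 16 TRAF and NF-kB genes. The lists are short, and nothing particular to the lists is read from them.

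Among them, Tnfsf4, the ligand of the T cell receptor OX40, was higher in recurrences than in TI-K primaries by 0.84 (SE 0.26, limma adjusted p = 0.0260) and in TI-KM than in TI-K primaries by 0.81 (SE 0.22, limma adjusted p = 0.0227). Tnfrsf17, the plasma cell receptor BCMA, was higher in recurrences than in TI-K primaries by 1.66 (SE 0.46, limma adjusted p = 0.0146), and Tnfrsf18, the regulatory T cell receptor GITR, by 0.71 (SE 0.18, limma adjusted p = 0.0107). Traf1, an adaptor of 4-1BB and other receptors, was lower by −0.87 (SE 0.25, limma adjusted p = 0.0172).

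Cmtm6, a membrane protein that keeps PD-L1 on the cell surface, was higher in recurrences by 0.84 (SE 0.19, limma adjusted p = 0.00410) and in TI-KM primaries by 0.78 (SE 0.15, limma adjusted p = 0.00613), both against TI-K primaries. Its signal was 9060 to 15674 in recurrences, 8701 to 17656 in TI-KM primaries and 4677 to 10623 in TI-K primaries. Jak2, a kinase of the interferon gamma receptor, was lower in recurrences than in TI-K primaries by −0.65 (SE 0.15, limma adjusted p = 0.00428). Ifngr2, a chain of that receptor, was higher in recurrences than in TI-K primaries by 0.99 (SE 0.26, limma adjusted p = 0.0121). It was also higher in TI-KM than in TI-K primaries, by 0.73 (SE 0.22, limma adjusted p = 0.0379). Cd200r4, a CD200 receptor relative, was higher in TI-KM than in TI-K primaries by 2.50 (SE 0.80, limma adjusted p = 0.0489), with 206 to 2975 in TI-KM and 10.6 to 4215 in TI-K primaries.

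None of these named genes was called with the sets as a block: Cmtm6 then differed by 0.05 and 0.11, Tnfsf4 by −0.03 and 0.08, each against TI-K primaries with recurrences first, and Cd200r4 by −1.36 for TI-KM primaries. Some leukocyte markers were called too. Cd8a, a marker of cytotoxic T cells, was higher in recurrences than in TI-K primaries by 1.24 (SE 0.39, limma adjusted p = 0.0291). Siglecf, a marker of alveolar macrophages and eosinophils, was lower by −1.83 (SE 0.56, limma adjusted p = 0.0232). In that comparison 2 of 13 T and natural killer cell, 2 of 5 B cell and 1 of 11 dendritic cell markers were higher. Lower were 2 of 13 macrophage markers. Of all genes 12.2% were called higher and 6.73% lower there, and nothing is read from these short lists. With the set block 0 of these markers were called, where 0.0959% of all genes were. Cd8a then differed by −0.24 and Siglecf by −2.16 (limma adjusted p = 0.878 and 0.271). Their part in the results was not tested.

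The genes whose signal was most like that of Tnfsf9 were ranked by the lower of the Pearson correlations over the 10 high-18S and the 13 remaining tumour arrays. The 6 leading genes were Atp13a4 at 0.80, Agpat2, an acyltransferase of lipid synthesis, at 0.79, Tmem163 at 0.76, Ntf5, a neurotrophin, at 0.75, and Rap1gap, an inhibitor of the small GTPase Rap1, and Tmem213, both at 0.74. Over all 14602 genes, 201 exceeded 0.5. The likeness among high-18S arrays rests on a few of them: without the 2 arrays farthest from the median of Tnfsf9 the correlations there were 0.05 to 0.45, and among the remaining arrays 0.59 to 0.72.

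None of the other 9 genes came near those values. Over the same arrays, Tnfrsf9 correlated with its ligand at 0.10 and 0.40 in high-18S and remaining arrays, and Cd86 at −0.84 and −0.34. Without the 2 arrays farthest from the median of Tnfsf9 these were −0.10 and 0.01 for Tnfrsf9 and −0.52 and −0.36 for Cd86. Of the 45 pairs among the 10 genes, 16 correlated positively in both sets, 9 negatively in both and 20 with opposite signs. The pair Ctla4 and Pdcd1lg2 alone exceeded 0.5 in both, at 0.64 and 0.66, and without recurrence 1 its correlation among the 9 other high-18S arrays was −0.28. The points share a scaling and the 18S level of their set, so these correlations describe the arrays.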

How the data were processed

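One Affymetrix array was run per sample, 29 in all. The deposited values are intensities, 1 MAS5 signal per probe set, made by the authors per the submitters' processing notes, which give no MAS5 version. The series text names MOE430A 2.0, but the deposited file holds 45101 probe sets. Each array had a 2% trimmed mean of 500.003, and no further scaling was applied. Precision is limited by the number of arrays, which carry no read depth.

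Probe sets, named from the platform annotation, were kept above the 40th percentile of their array in at least 6 arrays. Each of 14602 genes was represented by its probe set of highest mean. limma 3.58.1 in R 4.3.3 (package data.table, version 1.17.8) fitted log2(signal + 20), 20 being the rounded 20th percentile, with 4 groups and a variance trend. Adjustment was by Benjamini-Hochberg over all genes tested, with calls under 0.05. The fit was tested on simulated data with independent values and no sets of arrays. That test therefore cannot say how the sets affect the calls. A second fit of the 28 tumours added the sets. The members, lists, sets and tests were chosen with earlier results of these data known. The naming rule took members, up to 3 called genes of each list and comparison with the smallest p, and the 6 most like Tnfsf9. Differences are not given for all list genes that met it. Cd40lg, Tnfrsf13c, Cd96, Foxp3, Pax5, Blk, Xcr1, H2-Aa, Cdh1 and Mertk were left out. Socs3 and some markers were named outside the rule. The alternatives without recurrence 1 in the set fits were added after seeing the data. Replicate numbers follow accession order and pair no samples.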

Additional observations from a re-analysis of the deposited data

Results flagged for a closer look

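In recurrences, Cd276 had 1 low array, recurrence 1 at 164, while the other 5 lay between 305 and 374. Pdcd1lg2 had 1 high array, again recurrence 1, at 638, beside 49.0 to 124 in the others. The second Tnfrsf9 probe set had 1 high array, recurrence 2 at 37.8, beside 6.70 to 13.4 in the others. These were singled out by a gap test at the 95% level, which chance passes in about 1 of 20 groups; 24 groups were tested and 3 passed. The difference of Ctla4 between recurrences and TI-KM primaries had opposite signs in the sets, 1.27 in high-18S arrays and −0.17 in remaining arrays; the gap of 1.44 was not called when tested as an interaction (limma adjusted p = 0.906).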

How the results depend on the processing

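Of 490 gene values under other settings of the processing or the fit, 426 kept direction and side of the threshold, 17 lost the call, 3 gained it and 44 turned sign, of which 41 were not called either way. Of 870 values with 1 array left out, 821 kept both, 23 lost the call, 3 gained it and 23 turned sign. Causes were not tested. The values rest on few arrays, on weak signals for Ctla4, Pdcd1, Pdcd1lg2 and Cd80, and on sets of arrays that the labels do not explain. No paired analysis was possible because replicate numbers follow accession order only, so no replicate block could be built.

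The number of the 10 genes called for TI-KM against TI-K primaries was 1, and it was 0 with the sets as a block, among remaining arrays, with no filter on low values and with the tumours of title number 76 averaged, and 2 with quantile normalization; it ranged from 0 to 2 with 1 array left out. For recurrences against TI-K primaries the number was 2, against 0 with the sets as a block and 1 among remaining arrays, in the fit of only the groups compared and with the 3′ to 5′ ratio as a covariate; it ranged from 0 to 2 with 1 array left out. For recurrences against TI-KM primaries it was 1 among remaining arrays. For high-18S against remaining arrays it was 3 after scaling to a common median and 1 with quantile normalization.

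Signs turned as follows, with differences in log2. With the sets as a block, TI-KM against TI-K primaries gave Cd200 −0.11, Cd80 −0.23, Pdcd1lg2 −0.33 and Tnfrsf9 −0.84; recurrences against TI-K primaries gave Cd200 −0.49, Cd80 −0.27, Pdcd1 −0.28 and Pdcd1lg2 −0.28; recurrences against TI-KM primaries gave Cd80 −0.039 and Pdcd1 −0.010. Among remaining arrays, TI-KM against TI-K primaries gave Cd200 −0.028, Cd80 −0.28, Pdcd1lg2 −0.27 and Tnfrsf9 −0.67; recurrences against TI-K primaries gave Cd200 −0.80, Cd276 0.10, Cd80 −0.089, Ctla4 −0.58, Pdcd1 −0.97 and Pdcd1lg2 −0.52; recurrences against TI-KM primaries gave Cd276 0.31, Ctla4 −0.17, Pdcd1 −0.88 and Pdcd1lg2 −0.25. Among high-18S arrays, recurrences against TI-KM primaries gave Cd80 −0.19 and Cd86 0.019.

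Scaling to a common median gave, for high-18S against remaining arrays, Cd274 −0.084, Cd276 −0.45, Cd80 −0.23, Cd86 −0.27 and Ctla4 −0.010, for recurrences against TI-K primaries Pdcd1 −0.12, and for TI-KM against TI-K primaries Tnfsf9 −0.0091. Quantile normalization gave, for high-18S against remaining arrays, Cd276 −0.059, Cd80 −0.34 and Ctla4 −0.10, and for Cd80 −0.032 in TI-KM against TI-K primaries, −0.060 in recurrences against TI-K primaries and −0.028 in recurrences against TI-KM primaries; it also gave Pdcd1 −0.17 in recurrences against TI-K primaries. An offset of 5 gave Pdcd1 −0.13 in recurrences against TI-K primaries. With the 3′ to 5′ ratio as a covariate, Pdcd1 gave −0.43 in recurrences against TI-K primaries and −0.25 against TI-KM primaries, and Cd86 gave 0.043 against TI-KM primaries.

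With 1 array left out, recurrences against TI-KM primaries ranged from −0.13 to 0.092 for Cd276, from −0.090 to 0.13 for Cd80, from −0.46 to 0.059 for Cd86, from −0.37 to 0.46 for Pdcd1 and from −0.16 to 0.49 for Pdcd1lg2. Recurrences against TI-K primaries ranged from −0.55 to 0.28 for Pdcd1, from −0.41 to 0.10 for Tnfrsf9 and from −0.84 to 0.033 for Tnfsf9, and TI-KM against TI-K primaries from −0.052 to 0.14 for Tnfsf9. Without recurrence 1, an alternative added after seeing the data, the difference of the recurrence effect between sets was −0.055 for Pdcd1lg2.

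The number of all genes called moved by over 1.5 times in these settings. For TI-KM against TI-K primaries, with 1170 called, it was 0 with the sets as a block and among remaining arrays, 1866 with quantile normalization, 766 with the title number 76 tumours averaged, 388 to 475 without 1 of the high-number tumours, and 754 to 756 without TI-KM primary 1, 2 or 4. For recurrences against TI-K primaries, with 2758 called, it was 14 with the block, 19 among remaining arrays, 1558 with the 3′ to 5′ ratio and 1624 to 1816 without recurrence 2, 3 or 4. For recurrences against TI-KM primaries, with 38 called, it was 103 with the block, 12 among remaining arrays, 1 among high-18S arrays, 72 with quantile normalization, 10 in the fit of only these groups and 0 with the 3′ to 5′ ratio; it was 12 to 25 without recurrence 1, 2, 3 or 5 or TI-KM primary 13, 64 without TI-K primary 8 and 142 without recurrence 6. With every probe set tested, counts were 5052, 8583, 141, 15629 and 3878 of 31932 for TI-KM against TI-K primaries, recurrences against TI-K primaries, recurrences against TI-KM primaries, high-18S against remaining arrays and high-number against remaining TI-K primaries.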
